A study of Rattus norvegicus with 12 samples.

Results

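The comparison set B12 cells treated for 24 h with exosomes from CD44v knockdown ASML cells (kd exosomes) against B12 cells treated for 24 h with exosomes from wild-type ASML cells (wt exosomes). It rests on 4 of the 12 arrays of the study, chosen by their labels: kd exosomes with replicate numbers 1 and 2, and wt exosomes with replicate numbers 1 and 2. Differences were taken between arrays of the same number, and the untreated B12 arrays were not used. ASML is a metastasizing rat pancreatic adenocarcinoma line, and B12 is a rat line of lymph node stroma. The exosomes are small vesicles that ASML cells shed, and the remaining arrays of the study measured RNA of the vesicles themselves and of untreated B12 cells. The knockdown was made in the ASML cells and not in the B12 cells, so every B12 array in the comparison carries the parental genotype and received exosomes. The sources used here do not give how the knockdown was made, whether it is 1 clone, or the exosome dose. Nor do they say that replicates came from separate cultures. In the main fit, p-values measure how far the differences within numbers 1 and 2 disagree, with spread shared across probes. They do not measure a spread between known separate cultures, and that disagreement may be technical.

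CD44 is the main receptor for the matrix sugar hyaluronan, and its variant isoforms (CD44v) carry extra stretches in the outer part of the protein that bind growth factors and matrix. Tumour exosomes can bind and enter stromal cells, and carry proteins and RNA that alter matrix, adhesion and growth of the recipient cell. A comparison of kd with wt exosomes asks which part of the response of lymph node stroma goes with CD44v on or in the donor cell.

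The sources used here do not place the Cd44 probe on the transcript, so whether it reads variant isoforms is unknown and it may leave the knockdown unchecked. On the exosome arrays Cd44 had normalized log2 signals of 5.54, 5.66 and 5.34 in kd exosomes, against 6.98, 6.87 and 6.56 in wt exosomes. The groups did not overlap in the vesicles. In the recipient B12 cells Cd44 had 9.13 and 10.79 after kd exosomes (numbers 1 and 2), against 9.05 and 10.31 after wt exosomes. The difference was 0.28 ± 0.18 (log2, SE from limma; 0.08 and 0.48 within numbers 1 and 2; unadjusted p = 0.166, adjusted p = 0.986), and the groups overlapped.

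The 4 arrays were of like brightness. Mean signal over background was 526 and 588 after kd exosomes, against 562 and 579.6 after wt exosomes, and 53.3% to 54.3% of 21946 probes were detected. The replicate number set the arrays further apart than the exosomes did. The first principal component held 82% of the variance and placed the kd arrays at −46.4 and 56.8 (numbers 1 and 2), against −47.7 and 37.3 for the wt arrays. Across probes, the median size of the difference between numbers was 0.39 after kd exosomes and 0.34 after wt exosomes (log2), while the median size of the kd minus wt difference was 0.19 within number 1 and 0.25 within number 2.

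Defining markers also differed with the number. Cxcl12, the chemokine of reticular stroma, had 8.43 and 15.07 after kd exosomes, against 8.03 and 14.99 after wt exosomes. Pdgfra, a receptor of mesenchymal cells, was detected on the number 2 arrays, at 11.36 after kd and 11.47 after wt exosomes, and not on the number 1 arrays, at 4.33 and 4.40. Of 9 stroma markers on the array 6 were detected on all 4 arrays, and Thy1 on none. The epithelial keratins Krt8 and Krt19 were detected on all 4 arrays, with Krt8 at 13.64 and 10.95 after kd exosomes, against 13.65 and 11.59 after wt exosomes, and so was Cdh1, while Epcam, Krt18, the usual partner of Krt8, and Cldn3 were detected on none. The number 1 arrays labelled as stroma thus had higher Krt8 and Krt19 than the number 2 arrays and no detected Pdgfra. Stroma markers did not all go that way. Pdpn, detected on 2 arrays, was higher in number 1, at 6.67 and 4.49 after kd exosomes, against 5.77 and 4.27 after wt exosomes. Des was higher in number 1 too, Vcam1 and Icam1 were higher in number 2, and Vim and Ltbr differed little. Of the leukocyte markers Ptprc, Cd3e and Aif1 were detected on no array and Cd68 on all 4. Of the endothelial markers Cdh5 and Vwf were detected on none and Tek on all 4, at 8.29 and 4.99 after kd exosomes, against 8.35 and 5.76 after wt exosomes. Most results below are therefore given within number 1 and within number 2, and some genes and lists only by the difference over both numbers.

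Limma called 0 of 11229 probes at an adjusted p under 0.05 in either direction (0% higher and 0% lower), with the replicate number as a block. The lowest adjusted p was 0.168. At an unadjusted p under 0.05, 662 probes passed (5.9%), of which 331 were higher (2.95%) and 331 lower (2.95%). Without the block 144 were higher and 82 lower, and 0 were called. No gene below is therefore called changed, except where another processing is named, and differences are given as values. Across the probes, the difference within number 1 had a correlation of 0.047 with that within number 2, a description over 11229 probes that share 4 arrays. The sign was the same in 49.5% of probes. Within number 1, 143 probes differed by more than 1 in log2, and within number 2, 592 did. Of these, 3 were higher in both numbers, 13 lower in both and 16 of opposite sign.

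**Figure D1:**
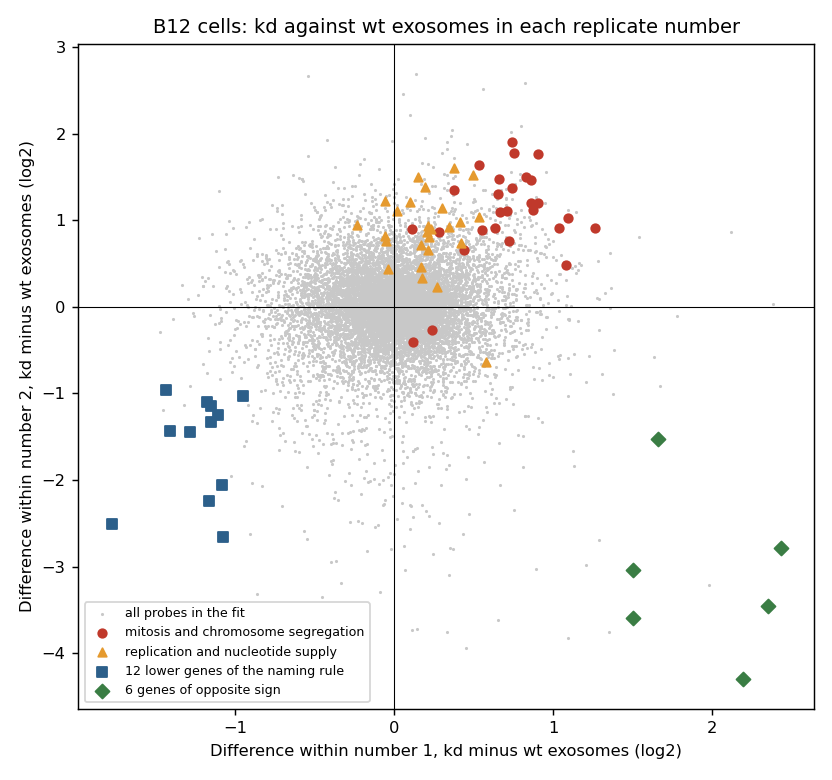
Difference between kd and wt exosomes (log2) within number 1 on the horizontal axis and within number 2 on the vertical axis, with 1 point per probe in the fit. Red circles are mitosis genes, orange triangles replication genes, blue squares the 12 lower genes of the naming rule and green diamonds 6 genes of opposite sign. The grey cloud shows no shared slope (correlation 0.047), whereas 25 of 27 mitosis genes lie in the upper right part and 6 genes lie far into the lower right.

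Genes of mitosis and chromosome segregation stood highest of the 27 gene lists. These genes encode the kinases, motors and checkpoint proteins that part the chromosomes, and their transcripts peak in cells about to divide. Of 27 measured genes 25 were higher with kd exosomes within both numbers, where 24.3% of 7685 genes were. At an unadjusted p under 0.05, 24 were higher (3.11% of all genes) and 0 lower (3.21% of all genes). The kd and wt arrays did not overlap for 21 of them, all higher, where 10.4% of all genes were higher and 8.9% lower without overlap. The list's median difference was 0.98 (log2), with 0.73 within number 1 and 1.10 within number 2, against a median over all probes of 0.00048 and 0.0025. None of the genes passed after adjustment over all probes. The median was 0.45 in the authors' values and 0.61 without background correction. Without the block, 10 of the genes were higher at that p, and in fits without the block that left out 1 array, 2 were without kd number 1, 1 without kd number 2, 9 without wt number 1 and 0 without wt number 2.

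Plk1, the kinase that starts mitosis and spindle assembly, had 8.51 and 8.22 after kd exosomes, against 7.63 and 7.10 after wt exosomes. Both kd arrays lay above both wt arrays, by 1.00 ± 0.22 (SE; limma adjusted p = 0.457). Aspm, a protein of the spindle poles, had 8.16 and 8.64 after kd exosomes, against 7.25 and 6.87 after wt exosomes. It showed the largest difference of the list, 1.34 ± 0.27, with 0.91 and 1.77 by number. Prc1, which bundles microtubules of the central spindle, had 9.83 and 10.06 after kd exosomes, against 8.97 and 8.59 after wt exosomes. Ube2c, the ubiquitin-conjugating enzyme of the anaphase-promoting complex, had 9.07 and 8.33 after kd exosomes, against 7.97 and 7.31 after wt exosomes. Its difference was nearly equal in the numbers, 1.09 and 1.02. The checkpoint kinase Bub1 had 7.81 and 7.83 after kd exosomes, against 6.77 and 6.92 after wt exosomes, and its partner Bub1b 8.14 and 7.51, against 6.87 and 6.59. Kif20a, a motor of cell division, had 9.77 and 9.06 after kd exosomes, against 8.87 and 7.86 after wt exosomes. For these genes each kd array lay above each wt array, and for Aspm, Prc1 and most others the number 2 wt array was the lowest of the 4.

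Of the 27, 3 did not reach an unadjusted p of 0.05 (named after their values were seen). The centromere protein gene Incenp lay at 0.51 ± 0.25 with 0.11 and 0.90 by number. The checkpoint gene Mad2l1, of low signal, and the proliferation marker Mki67, at 6.16 and 5.94 after kd exosomes, against 5.92 and 6.20 after wt exosomes, differed by −0.14 ± 0.28 and −0.01 ± 0.28. Both had opposite signs in the numbers. More dividing cells and more of these transcripts per cell cannot be told apart in bulk RNA. Summed over the 26 epithelial markers on the array, the linear signal was 29771 and 7494 after kd exosomes, against 37040.3 and 9111 after wt exosomes. The sum was lower with kd exosomes in both numbers, but the brightest markers weigh most in it. Over the 13 measured epithelial markers the median difference was −0.10 (log2), and 6 had opposite signs in the numbers. A part of epithelial signal in the mitosis result was not tested.

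**Figure D2:**
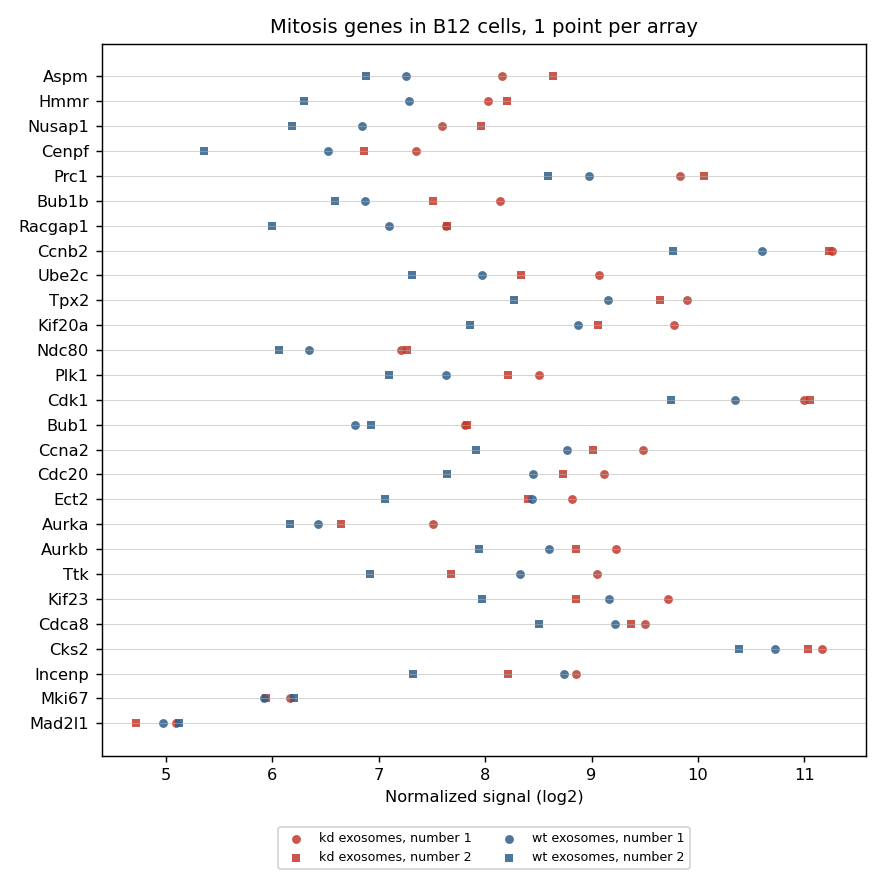
Normalized signal (log2) of the 27 measured mitosis genes, sorted by difference, with 1 point per array. Red points (kd exosomes) lie right of the blue points (wt exosomes) of the same shape in all but Mki67 and Mad2l1, and the blue square, wt exosomes number 2, is the leftmost point in most rows.

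Promoters of some of these genes are shown because the list lay higher as a group. The cell cycle genes homology region (CHR, searched as TTTGAA) is a short element of many mitosis promoters, often found a short way from a CCAAT box, and both were searched on both strands from 250 bases before to 50 bases after the gene start. RefSeq promoters (GRCr8) were matched for 21 of the 27 genes. The promoters shown are examples that hold TTTGAA, whereas that of Bub1, not shown, holds neither motif. In the sequences, given 5′ to 3′ along the gene, capitals mark TTTGAA (or TTCAAA) and CCAAT (or ATTGG).
Plk1 (chr1:186147408-186147707, plus strand): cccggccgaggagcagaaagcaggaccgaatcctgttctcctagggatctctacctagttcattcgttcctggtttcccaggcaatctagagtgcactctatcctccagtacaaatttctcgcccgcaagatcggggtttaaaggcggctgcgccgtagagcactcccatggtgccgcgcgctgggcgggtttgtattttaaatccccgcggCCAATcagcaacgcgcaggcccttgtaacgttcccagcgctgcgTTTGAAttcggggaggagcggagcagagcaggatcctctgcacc
Aspm (chr13:53625334-53625633, plus strand): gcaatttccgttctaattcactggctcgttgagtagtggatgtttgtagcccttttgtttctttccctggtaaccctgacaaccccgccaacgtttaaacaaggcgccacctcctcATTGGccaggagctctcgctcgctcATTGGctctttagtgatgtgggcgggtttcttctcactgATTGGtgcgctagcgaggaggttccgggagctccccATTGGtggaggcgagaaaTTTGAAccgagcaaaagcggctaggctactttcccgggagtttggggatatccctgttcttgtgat
Prc1 (chr1:143659231-143659530, plus strand): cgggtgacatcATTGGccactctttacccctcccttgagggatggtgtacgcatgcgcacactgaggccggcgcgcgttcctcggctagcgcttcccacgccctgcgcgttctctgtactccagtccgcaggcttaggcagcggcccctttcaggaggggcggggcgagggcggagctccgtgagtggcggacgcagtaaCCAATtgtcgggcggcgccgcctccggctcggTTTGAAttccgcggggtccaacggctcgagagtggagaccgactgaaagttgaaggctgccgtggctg
Bub1b (chr3:126016817-126017116, plus strand): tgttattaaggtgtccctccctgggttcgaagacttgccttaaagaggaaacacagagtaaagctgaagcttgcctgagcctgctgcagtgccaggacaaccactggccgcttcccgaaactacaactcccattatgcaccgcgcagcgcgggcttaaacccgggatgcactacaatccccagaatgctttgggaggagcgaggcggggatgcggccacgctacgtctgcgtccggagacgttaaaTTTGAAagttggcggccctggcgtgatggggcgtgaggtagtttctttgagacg
TTTGAA stood in 18 of the 21 promoters (85.7%), against 15.4% of the 10690 promoters of genes on the array and 18.1% of all 27457 promoters. It began within 50 bases of the gene start in 14 of them (66.7%), against 3.7% of the promoters of genes on the array. CCAAT stood in 16 (76.2%), against 37.9%, and the motifs overlapped in 2. The promoters of Mki67 and Mad2l1, whose values did not lie higher in both numbers, hold TTTGAA as well. A match is a run of letters and not a measured binding site.

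Replication and nucleotide supply genes, which are switched on before DNA is copied, lay higher with kd exosomes mainly in number 2. All 26 on the array were measured, and 12 were higher at an unadjusted p under 0.05 and 0 lower (3.11% and 3.21% of all genes). Within both numbers 20 were higher (24.3% of all genes), and 14 were higher without overlap of the groups (10.4% of all genes). The median was 0.56, with 0.21 within number 1 and 0.91 within number 2. Rrm2, a subunit of the enzyme that makes deoxynucleotides, had 11.16 and 10.88 after kd exosomes, against 10.79 and 9.28 after wt exosomes. Pole, the catalytic subunit of a replicative DNA polymerase, had 7.76 and 8.24 after kd exosomes, against 7.27 and 6.72 after wt exosomes. In both genes the wt array of number 2 was the lowest of the 4. Dut, which clears dUTP, lay at 0.63 ± 0.18 (0.35 and 0.92 by number) and the clamp loader subunit Rfc3 at 0.58 ± 0.18 (0.42 and 0.74). Each had an adjusted p of at least 0.622 in limma.

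The replication promoters differed from the mitosis promoters in their letters. A site of E2F, the factor family of S phase genes, was searched as TTTGGCGC on both strands. It stood in 7 of 21 matched replication promoters (33.3%), in 0 of the 21 mitosis promoters and in 0.8% of the promoters of genes on the array, whereas TTTGAA stood in 1 of the 21 replication promoters (4.8%). The promoters of Dut and Rfc3 hold no TTTGGCGC. Pole is shown as an example with a match, with TTTGGCGC (or GCGCCAAA) and CCAAT (or ATTGG) in capitals.
Pole (chr12:52053613-52053912, minus strand): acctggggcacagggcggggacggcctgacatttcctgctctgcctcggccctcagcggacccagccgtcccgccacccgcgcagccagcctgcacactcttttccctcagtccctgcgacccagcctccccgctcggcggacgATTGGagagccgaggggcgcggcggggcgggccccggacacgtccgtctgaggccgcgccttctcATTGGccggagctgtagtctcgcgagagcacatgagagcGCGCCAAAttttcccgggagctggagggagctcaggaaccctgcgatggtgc

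Cell cycle inhibitors and p53 targets gave no common direction. Of 10 measured genes, 0 reached an unadjusted p of 0.05, and 2 were higher and 3 lower within both numbers (24.3% and 25% of all genes). The median was 0.07, with −0.03 and −0.07 by number.

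Most lipid synthesis genes lay higher with kd exosomes in both numbers. Of 18 measured genes of cholesterol synthesis and sterol uptake, 12 were higher and 1 lower within both numbers (24.3% and 25% of all genes). At an unadjusted p under 0.05, 7 were higher and 0 lower (3.11% and 3.21% of all genes), and the median was 0.34 (0.23 and 0.51 by number). Sqle, an enzyme of sterol synthesis, had 10.55 and 11.54 after kd exosomes, against 10.14 and 11.05 after wt exosomes. Its groups overlapped, because the numbers differ, while the difference was 0.41 and 0.49 by number. Cyp51, the sterol demethylase, had 7.37 and 7.52 after kd exosomes, against 6.78 and 6.82 after wt exosomes, and Dhcr7, which makes cholesterol in the last step, had 10.15 and 9.94, against 9.72 and 9.35. Both kd arrays lay above both wt arrays in these genes. Tm7sf2, a sterol reductase, had 6.19 and 11.19 after kd exosomes, against 5.88 and 9.41 after wt exosomes, so most of its difference stood in number 2. The sterol regulatory element, searched as TCACNCCAC on both strands, stood in 0 of 14 matched promoters of the list, against 1.0% of the promoters of genes on the array, and CCAAT in 12 (85.7%). At a share of 1.0%, 14 promoters are too few to tell a lack of this element, and other forms of it were not searched.

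Of 14 fatty acid synthesis and desaturation genes 10 were higher within both numbers and 0 lower (24.3% and 25% of all genes), and the median was 0.31 (0.17 and 0.56). The desaturase Scd had 9.43 and 10.03 after kd exosomes, against 9.07 and 7.99 after wt exosomes, a difference of 1.21 ± 0.35 (limma adjusted p = 0.659). Scd2, a related desaturase, lay at 0.49 ± 0.18 (0.16 and 0.82 by number). Fads2, which desaturates polyunsaturated fatty acids, had 7.57 and 10.00 after kd exosomes, against 6.85 and 9.34 after wt exosomes, with like differences of 0.72 and 0.65. These 3 had an unadjusted p under 0.05 (3.11% of all genes), and 0 of the list did toward lower values.

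**Figure D3:**
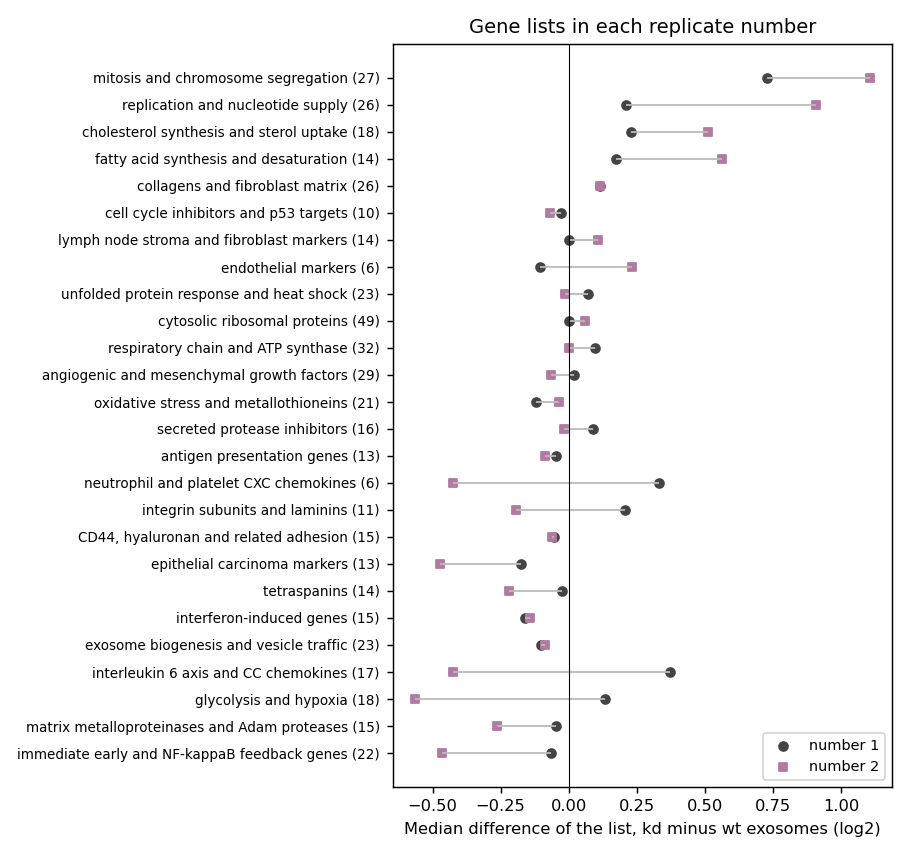
Median difference between kd and wt exosomes (log2) of each gene list with at least 5 measured genes (number of genes in brackets), within number 1 (circles) and number 2 (squares). Mitosis, replication, cholesterol and fatty acid lists lie right of 0 in both numbers, and the chemokine, interleukin 6 and glycolysis lists lie right of 0 in number 1 and left of it in number 2.

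By the naming rule, 12 genes were taken in each direction, each with a like sign in both numbers and an unadjusted p under 0.05. Of the 12 higher genes 6 were the mitosis genes given above. Among the others Sertad4 had the lowest unadjusted p, at 9.74 and 11.13 after kd exosomes, against 8.86 and 9.91 after wt exosomes (1.05 ± 0.18, limma adjusted p = 0.457). Its groups overlapped. Rbfox1, a splicing factor, had 5.50 and 6.15 after kd exosomes, against 4.55 and 4.95 after wt exosomes, close to background. Tdrd1, Nkain4 and the axon guidance gene Sema5a lay at 1.01 ± 0.27, 0.91 ± 0.26 and 0.90 ± 0.27, also from low signals on at least 1 array. Plek, a protein of blood cells, was not detected on either wt array and stood at least 1.68-fold higher with kd exosomes (limma adjusted p = 0.639). It entered the fit only through its detection after kd exosomes, a filter that favours this direction.

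Cyp4b1, a cytochrome P450 of epithelia, had the lowest p of the comparison. It had 9.99 and 5.70 after kd exosomes, against 11.76 and 8.20 after wt exosomes. The deposited intensities were 1053 and 157 after kd exosomes, against 3570.3 and 408 after wt exosomes. It was lower with kd exosomes in both numbers, by −1.78 and −2.51, and the difference was −2.14 ± 0.23 (unadjusted p = 1.5e-05, limma adjusted p = 0.168). With an offset of 50 in the background correction it passed, at −1.84 (limma adjusted p = 0.0168), the only probe called under any setting, and in the authors' values it lay at −1.27.

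The other lower genes were of diverse kinds. Kprp, a protein of keratinizing epithelia, had 4.55 and 8.80 after kd exosomes, against 5.97 and 10.24 after wt exosomes. Its differences were −1.41 and −1.44, but it was not detected on the kd array of number 1, so the first of them is limited by background. Car5b, a mitochondrial carbonic anhydrase, had 8.59 and 5.96 after kd exosomes, against 9.88 and 7.40 after wt exosomes. Kprp and Car5b differed by over 2 in log2 between the numbers, in opposite directions. Their measured kd minus wt differences were of like size, with the limit given for Kprp in number 1. C6, a component of the complement pore, had 5.61 and 4.89 after kd exosomes, against 6.78 and 7.13 after wt exosomes. Napsa, an aspartic protease, had 6.22 and 6.57 after kd exosomes, against 7.37 and 7.71 after wt exosomes. Hk3, a hexokinase, had 6.75 and 6.76 after kd exosomes, against 7.70 and 7.79 after wt exosomes. In these 3 genes both kd arrays lay below both wt arrays.

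Tm4sf4, a membrane protein related to tetraspanins, lay at −1.57 ± 0.27 (−1.09 and −2.06 by number), Slurp1, a secreted protein of epithelia, at −1.18 ± 0.23 and the gap junction gene Gjb2 at −1.14 ± 0.25. Gjb2 was not detected on the kd array of number 2. Adora2a, an adenosine receptor, was not detected after kd exosomes and stood at least 3.2-fold lower there. Tec, a kinase of blood cells, was not detected after kd exosomes either and stood at least 1.88-fold lower. Adora2a and Tec entered the fit only through their detection after wt exosomes, a filter that favours this direction. Bounds set the mean of the brighter group against the lowest detected signal of the dimmer arrays, or the probe's own signal where that was higher, and both genes had a limma adjusted p of 0.457.

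**Figure D4:**
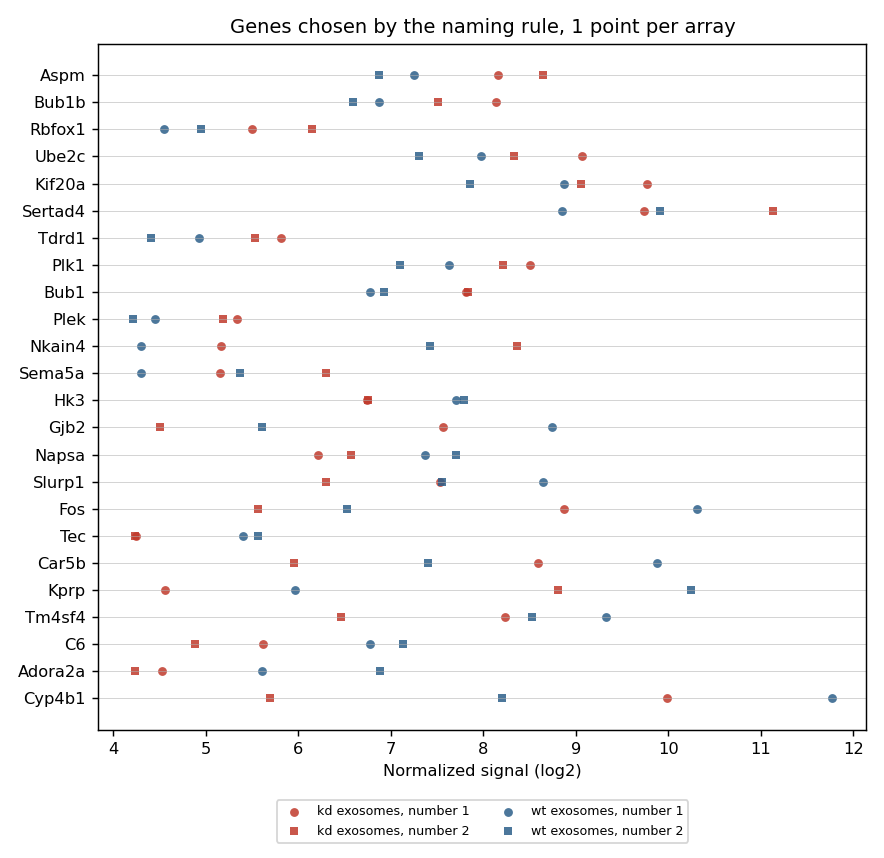
Normalized signal (log2) of the 24 genes named by the rule, sorted by difference, with 1 point per array. In the lower part red points (kd exosomes) lie left of blue points (wt exosomes) of the same shape, and for Cyp4b1, Kprp, Car5b, Gjb2 and Fos the circles and squares, numbers 1 and 2, stand far apart.

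Immediate early and NF-kappaB feedback genes, which answer growth factors and stress within minutes, lay lower with kd exosomes. Of 22 measured genes 13 were lower and 1 higher within both numbers, where 25% of all genes were lower. At an unadjusted p under 0.05, 5 were lower and 0 higher (3.21% and 3.11% of all genes), and the median was −0.31 (−0.07 and −0.47 by number). Fos, a subunit of the AP-1 transcription factor, had 8.88 and 5.57 after kd exosomes, against 10.31 and 6.52 after wt exosomes, a difference of −1.20 ± 0.23 (limma adjusted p = 0.457). Egr1, a zinc finger factor of the same early response, had 9.12 and 10.03 after kd exosomes, against 9.78 and 10.59 after wt exosomes. Fos was brighter in number 1 and Egr1 in number 2, and both were lower with kd exosomes in each. Klf4 and Ier2 lay at −0.45 ± 0.16 and −0.45 ± 0.17. Ligands of epidermal growth factor and related receptors include Ereg, at 4.58 and 7.67 after kd exosomes, against 5.47 and 8.98 after wt exosomes. Ereg was not detected on the kd array of number 1. The growth factors Bmp2 and Wnt5a lay at −1.17 ± 0.36 and −0.58 ± 0.25, and most of the Bmp2 difference stood in number 2 (−0.27 and −2.06). In the list of 29 growth factor genes as a whole 7 were higher and 8 lower within both numbers (24.3% and 25% of all genes).

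Interferon-induced genes showed a small shift toward lower values, with 10 of 15 lower and 1 higher within both numbers (25% and 24.3% of all genes) and a median of −0.17. At an unadjusted p under 0.05, however, 0 were lower and 1 higher (3.21% and 3.11% of all genes). The higher gene in both counts was Mx2, a GTPase that blocks viruses. It had 7.03 and 7.41 after kd exosomes, against 6.45 and 6.61 after wt exosomes (0.69 ± 0.25). Mx1, its relative, lay at −0.59 ± 0.26 and the transcription factor Irf7 at −0.40 ± 0.22 (−0.64 and −0.17 by number). Cxcl10, an interferon-induced chemokine for T cells, had 7.86 and 6.63 after kd exosomes, against 8.60 and 7.16 after wt exosomes. Among 13 antigen presentation genes 3 were higher and 4 lower within both numbers. RT1-DMb, which helps load peptides on class II molecules, had 7.63 and 6.04 after kd exosomes, against 8.17 and 7.52 after wt exosomes.

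**Figure D5:**
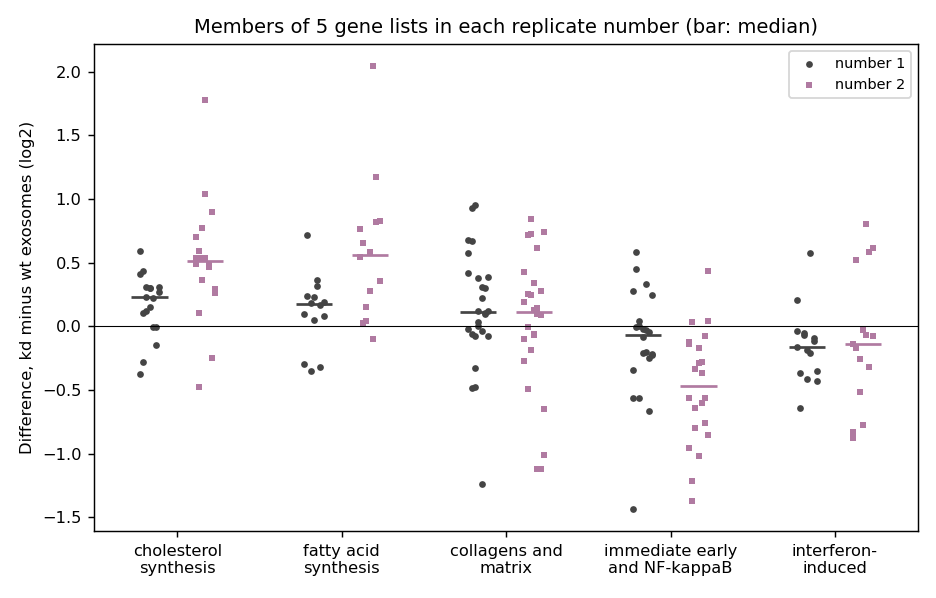
Difference between kd and wt exosomes (log2) of every measured member of 5 gene lists, within number 1 (circles) and number 2 (squares), with bars at the medians. Cholesterol and fatty acid genes lie mostly above 0 in both numbers, immediate early genes mostly below 0, most clearly in number 2, and the matrix genes spread to both sides.

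Matrix genes of fibroblasts were mixed as a list, with 10 of 26 higher and 4 lower within both numbers (24.3% and 25% of all genes) and a median of 0.16. The 4 that reached an unadjusted p under 0.05 were all higher, where 3.11% of all genes were higher and 3.21% lower at that p. Postn, the matrix protein periostin of fibroblasts, had 9.83 and 11.62 after kd exosomes, against 8.88 and 10.78 after wt exosomes, with 0.95 and 0.84 by number. The microfibril gene Fbn1 had 9.19 and 10.44 after kd exosomes, against 8.51 and 9.73 after wt exosomes, with 0.67 and 0.71 by number. Col5a1, a fibril collagen chain, lay at 0.42 ± 0.15 and Vcan, a large proteoglycan that binds hyaluronan, at 0.46 ± 0.18. For the 14 measured markers of stroma and fibroblasts the median was 0.06, with 5 higher and 2 lower within both numbers. Des, the muscle intermediate filament desmin, had 12.38 and 7.82 after kd exosomes, against 12.97 and 8.95 after wt exosomes. Mfap5, another microfibril gene, lay at 1.41 ± 0.50, nearly all of it in number 2 (0.14 and 2.69).

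Epithelial markers went both ways, from −0.91 to 0.65 with a median of −0.10. Of 13 measured genes 6 were lower and 1 higher within both numbers (25% and 24.3% of all genes) and 6 had opposite signs (50.6% of all genes). At an unadjusted p under 0.05, 4 were lower (3.21% of all genes) and 0 higher, while 0 were lower and 1 higher without overlap of the groups. Lgals4, a galectin of gut epithelium, had 13.00 and 9.44 after kd exosomes, against 13.62 and 10.28 after wt exosomes (−0.74 ± 0.15). Krt19, a keratin of simple epithelia, had 11.72 and 9.50 after kd exosomes, against 12.46 and 9.98 after wt exosomes. Cdh1, the adhesion protein of epithelia, and its factor Elf3 lay at −0.26 and −1.56, and at −0.31 and −1.26, by number. Elf3 was not detected on the kd array of number 2. The signal of Lgals4, Krt19, Cdh1 and Elf3 was higher in number 1 than in number 2 in each exosome group. For each of them the kd array of number 2 was the lowest of the 4. Cd68, a lysosomal protein of macrophages that other cells also express, had 7.98 and 6.77 after kd exosomes, against 8.69 and 9.07 after wt exosomes, while the leukocyte markers Ptprc, Cd3e and Aif1 stayed undetected. Of 6 measured endothelial markers 2 were higher and 1 lower within both numbers, and of 2 leukocyte markers 0 were higher and 1 lower.

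Adhesion genes around CD44 gave no common direction. Of 15 measured genes 5 were higher and 8 lower within both numbers (24.3% and 25% of all genes), with a median of −0.06. The integrin subunit Itgb4, which binds laminin in hemidesmosomes, had 9.51 and 6.93 after kd exosomes, against 10.11 and 8.10 after wt exosomes (−0.89 ± 0.22). Hmmr, a spindle protein that also binds hyaluronan, had 8.03 and 8.20 after kd exosomes, against 7.29 and 6.30 after wt exosomes, and belongs to the mitosis list too. Spp1, osteopontin, a ligand of CD44, lay at −0.44 ± 0.16 (−0.22 and −0.67 by number). Cd24 and Itgb1 had differences that stood in number 2, with −0.12 and −2.54, and −0.09 and −2.05. Of 11 integrin subunits and laminins 2 were higher and 3 lower within both numbers. Tspan8, a tetraspanin of tumour exosomes, had 14.13 and 10.09 after kd exosomes, against 14.34 and 12.24 after wt exosomes. It was lower by number at −0.21 and −2.16, so that the number 2 kd array stood apart. Over the 14 tetraspanins 2 were higher and 6 lower within both numbers, and over 23 exosome biogenesis and vesicle traffic genes 1 was higher and 8 lower (24.3% and 25% of all genes). The medians were −0.11 and −0.18.

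Some genes went opposite ways in the numbers. All 6 genes with the largest opposite differences, chosen for this pattern, were higher with kd exosomes in number 1 and lower in number 2. The neutrophil chemokine Cxcl2 had 11.22 and 6.76 after kd exosomes, against 9.02 and 11.05 after wt exosomes. S100a8, an alarmin of myeloid cells, had 7.88 and 6.22 after kd exosomes, against 5.44 and 9.00 after wt exosomes. Csf2, the growth factor of granulocytes and macrophages, had 8.88 and 5.86 after kd exosomes, against 6.53 and 9.32 after wt exosomes. In each of these, signal after kd exosomes lay more than 2 in log2 above that after wt exosomes in number 1 and more than 2 below it in number 2. Pla2g2a, a secreted phospholipase, differed by 1.51 and −3.05 and the retinoic acid hydroxylase Cyp26b1 by 1.66 and −1.53. Plet1 had 10.59 and 6.42 after kd exosomes, against 9.09 and 10.02 after wt exosomes. Opposite signs were no exception among all genes, where 50.6% had them. Each number holds 1 array per group, so a difference between the numbers was not tested.

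Medians of some gene lists also differed in sign between the numbers. Csf2 and Cxcl2, chosen above for this pattern, are members of the interleukin 6 and CXC lists. The 17 measured genes of the interleukin 6 axis and CC chemokines had a median of 0.37 in number 1 and −0.43 in number 2, and 11 had opposite signs (50.6% of all genes). The 6 measured CXC chemokines and receptors had 0.33 and −0.42. Glycolysis and hypoxia genes had 0.13 and −0.56, with opposite signs in 17 of 18 (50.6% of all genes). Among the proteases, Mmp10, a stromelysin, had 4.90 and 5.16 after kd exosomes, against 4.76 and 8.88 after wt exosomes, so 1 of the 4 arrays carried the signal. Mmp9, a gelatinase, lay at −0.17 and −1.70 by number. Ctsk, a collagen-degrading cathepsin, had 5.32 and 11.17 after kd exosomes, against 4.98 and 9.82 after wt exosomes, and Mmp16, a membrane-bound metalloproteinase, lay at 0.26 and 1.40. Of 15 measured proteases 2 were higher and 2 lower at an unadjusted p under 0.05 (3.11% and 3.21% of all genes).

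Secreted protease inhibitors had a median of −0.01, and of 16 genes 0 reached an unadjusted p of 0.05. Opposite signs stood in 10 of the 16, where 50.6% of all genes had them. The protease trap A2m had 10.53 and 5.18 after kd exosomes, against 10.08 and 9.13 after wt exosomes (0.45 and −3.95 by number). Serpinb2, an inhibitor of plasminogen activators, differed by 0.35 and −2.78, and Slpi, an inhibitor of neutrophil elastase, by 0.66 and −1.57. These 3 genes were named after their values were seen, and each was higher in number 1 and lower in number 2.

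Ribosomal and respiratory chain genes had medians near 0. The 49 measured cytosolic ribosomal protein genes had a median of 0.02, with 16 higher and 9 lower within both numbers (24.3% and 25% of all genes). The 32 respiratory chain and ATP synthase genes had 0.02 (10 and 4). The 23 unfolded protein response and heat shock genes had 0.03 (6 and 1), and 0 of them reached an unadjusted p of 0.05. Oxidative stress genes had a median of −5.6e-05 over 21 genes, of which 2 were lower at an unadjusted p under 0.05 (3.21% of all genes). They were Mgst1, a microsomal glutathione transferase, and the aldo-keto reductase Akr1b8, at −0.28 and −2.49, and at −0.19 and −1.01, by number.

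The exosome arrays gave the same genes in the vesicles, scaled apart from the B12 arrays and with kd exosome array 3 unlike the other kd arrays. The values are a description with no test. Of the 12 lower genes 6 were detected on none of the 6 exosome arrays, Cyp4b1, Kprp and C6 among them, and 3 on all. Of the 12 higher genes 5 were detected on all 6 exosome arrays and 1 on none. The mean was higher in kd exosomes for 8 of the 12 higher genes and for 7 of the 12 lower genes, counting genes with little or no detected signal in the vesicles. Plk1 had 6.33, 6.30 and 6.58 in kd exosomes, against 6.36, 6.57 and 6.28 in wt exosomes, and Prc1 had 7.49, 7.49 and 7.88, against 8.08, 8.08 and 8.05. The groups overlapped for Plk1, and every kd exosome array lay below every wt exosome array for Prc1. Aspm had 7.30, 6.76 and 4.82 in kd exosomes, against 5.41, 6.00 and 5.56 in wt exosomes. Aspm, Bub1, Bub1b and Kif20a were higher on kd exosome arrays 1 and 2 than on every wt exosome array, and lower than these on kd exosome array 3, so the mitosis genes had no common direction in the vesicles. Mx2 had 9.83, 9.14 and 4.15 in kd exosomes, against 4.87, 6.32 and 5.24 in wt exosomes, and Cxcl10 had 8.22, 7.75 and 6.02, against 6.35, 6.16 and 6.33. Mx2 was thus higher with kd exosomes in the cells and on kd exosome arrays 1 and 2, while Cxcl10 was lower in the cells. Mgst1 had 7.21, 7.24 and 8.84 in kd exosomes, against 9.11, 9.24 and 8.86 in wt exosomes, and was lower in the cells too.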

How the data were processed

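Per the file headers, the table deposited without normalization lists for every probe its mean intensity and a p-value on each array. The labelled RNA was biotinylated cRNA on Illumina arrays, per the labels' protocols. The deposited p-value is small on both sides of background, so a probe counted as detected at a p-value under 0.05 and an intensity above background (the median of probes with a p-value above 0.9). Of 23365 rows, 848 without an identifier and 571 with repeated identifiers were left out, which left 21946 probes. GEO's platform table gave 1 symbol for 13129, several for 0 and none for 8817. The deposited value table holds intensities normalized by the authors by a method not given in the sources used here, and served as an alternative.

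The 4 arrays were background-corrected (normal-exponential, offset 16), quantile normalized and taken as log2 (limma 3.58.1, R 4.3.3). Of the probes, 11229 were detected on both arrays of kd or of wt exosomes and were tested two-sided with limma (lmFit, eBayes with a trend) with the replicate number as a block, 1 residual degree of freedom and Benjamini-Hochberg adjustment over all probes. The block follows the definition of the comparison. What a number marks is left unsaid by the labels, and the deviations of same-numbered arrays from their group means correlated at 0.802, which with 2 arrays per group is 1 value. A gene was given by its brightest probe (7685 genes). Exosome arrays were normalized apart. The fit was tested on simulated data.

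Members and 27 gene lists were chosen with earlier results of these data known, and lists are described without a set test. Named genes were the 12 per direction with the largest smaller one of the within-number differences, up to 4 per list by p, the 6 with the largest opposite differences, Cd44 and Tspan8. Alternatives were other fits, scalings, offsets, filters and left-out arrays. Promoters came from RefSeq (GRCr8), matched by gene ID.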

Additional observations from a re-analysis of the deposited data

How the results depend on the processing

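Limma called 0 probes in each direction under every setting but 1: with an offset of 50 it called 1 lower and 0 higher (Cyp4b1). The counts at an unadjusted p under 0.05 (331 higher, 331 lower) were 144 and 82 with no replicate block, and 165 lower with all 6 B12 arrays in 1 fit with the replicate block, where 221 were higher. The mitosis median of 0.98 was 0.61 without background correction and 0.45 in the authors' values, and 0.82 to 0.99 under the other settings that kept all 4 arrays. Its 24 genes at an unadjusted p under 0.05 were 22 to 24 under the settings that kept the block and 10 without it. Leaving out a number leaves 1 array per group and no test. Leaving out 1 array needed a fit with no block, in which a lone array is assumed to vary like the other group and number and exosome are unbalanced. There the counts were 46 to 114 higher and 41 to 166 lower, and the mitosis median over all left-out arrays and numbers was 0.58 to 1.32, with 0 to 9 mitosis genes at that p. Of 78 single genes, 0 turned direction under the settings that kept all 4 arrays, and these turned in at least 1 fit that left out an array, with these ranges of the difference: Kprp −3.56 to 0.71, Irf7 −0.90 to 0.0971, Ereg −2.86 to 0.65, Wnt5a −2.25 to 1.09, Nkain4 −0.70 to 2.51, Cyp4b1 −4.29 to 0.00269, Gjb2 −2.70 to 0.42, Fos −3.09 to 0.70, Tm7sf2 −1.46 to 3.54, Sqle −0.0437 to 0.95, Fads2 −0.56 to 1.93, Vcan −0.90 to 1.82. Further ranges were Des −3.14 to 1.42, Mfap5 −0.18 to 3.00, Lgals4 −2.51 to 1.04, Krt19 −1.84 to 0.64, Cdh1 −2.79 to 0.97, Elf3 −2.03 to 0.46, Itgb4 −2.18 to 0.40, Cd24 −3.81 to 1.15, Spp1 −1.06 to 0.18, Itgb1 −3.43 to 1.28, Ctsk −2.08 to 3.77, Cxcl12 −3.24 to 3.72. The rest were Mx1 −1.30 to 0.11, Akr1b8 −1.42 to 0.22, Cd44 −0.55 to 1.11, Tspan8 −3.21 to 0.84, Mad2l1 −0.40 to 0.12, Mki67 −0.27 to 0.24, A2m −4.42 to 0.93, Slpi −2.51 to 1.60, Postn −0.0521 to 1.84, Cxcl10 −1.35 to 0.0897, Mmp9 −1.88 to 0.00718, Mmp10 −3.85 to 0.27, Incenp −0.21 to 1.22, Serpinb2 −3.01 to 0.58. The cause was not tested beyond the imbalance of numbers that these fits hold by construction. With 2 arrays per group, their number limits the precision.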
